A study of Mus musculus with 4 samples.

Results

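The voltage-gated calcium channel, voltage-gated sodium channel and HCN channel genes of mouse brain septal tissue were taken as the gene rows whose symbol begins with Cacna, Cacnb, Cacng, Hcn or Scn followed by a digit. There were 41 such rows among 15409 gene rows. They comprised genes for the pores of calcium, sodium and HCN channels, for the alpha2delta and beta subunits of calcium channels, for gamma and TARP proteins and for the beta subunits of sodium channels. Cacna1s, Cacna1f and Scn4a of the same families were not among the rows and were not analysed here.

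The libraries were made from septal RNA of restraint-stressed mice, 2 from wild-type (WT) mice and 2 from TCRb-/- mice, in which the gene for the T cell receptor beta chain is inactivated. Every mouse of both genotypes had been restrained for 30 min on each of 3 days and was killed 1.5 h after the last restraint, so no unstressed group was analysed here. A library is a pool of tissue from 4 to 5 mice, and each genotype gave 1 library in experiment 1 and 1 in experiment 2, which the labels call batches. RNA came from the supernatant of a detergent-treated homogenate cleared of debris by centrifugation. The sources used here do not give strain, sex or age.

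Voltage-gated calcium and sodium channels are built around 1 large pore protein that opens on depolarisation. Smaller subunits set how many channels reach the membrane and how they open and close. Sodium channels carry the upstroke of the action potential, calcium channels couple firing to transmitter release, dendritic signalling and gene expression, and HCN channels open on hyperpolarisation and help neurons to fire rhythmically. Septal pacemaker neurons are known for HCN currents, and septal output helps to set the hippocampal theta rhythm.

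Levels are given as CPM, the reads of a gene scaled to a library size common to all libraries. Library totals ran from 19988137 to 26210790 reads, with the TCRb-/- library of experiment 2 the shallowest. Trbc2, which encodes part of the missing receptor chain, had 0 reads in both TCRb-/- libraries and 169 and 86 reads in the WT libraries. All 12 septum marker genes fixed for the tissue check were listed and none had 0 reads in any library. Their summed level was 532 and 506 CPM in TCRb-/- and WT of experiment 1, and 587 and 611 in experiment 2, so it overlapped between genotypes but not between experiments. Of these markers 4 were called higher in experiment 2 and 1 lower. Striatum markers (12 of 12 listed) summed to 5381 CPM in the TCRb-/- library of experiment 1 and to 4809, 1308 and 2900 CPM in the WT library of experiment 1, the TCRb-/- library of experiment 2 and the WT library of experiment 2. The TCRb-/- library of experiment 2 had the lowest level of 11 of the 12 striatum markers and the highest level of all 8 thalamus markers. For 1 gene alone, 2 libraries against 2 allow no exact permutation p under 0.333, and the tests below therefore come from limma fitted across all genes.

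Mean levels of the channel genes ran from 0.400 CPM for Scn10a to 159.6 CPM for Cacnb4, and 9 genes had a mean over 100 CPM. Tests covered 37 of the 41, those with a mean of at least 1 CPM. The other 4 were Cacng6, Cacng7, Scn10a and Scn11a, whose reads per library ran from 6 to 30. For Scn10a, a sodium channel of sensory neurons, the 6 reads of the WT library of experiment 2 gave 0.268 CPM with an exact 95% interval of 0.0985 to 0.584, which covers counting error only. With so few reads, no test between libraries was run for these 4 genes.

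**Figure D1:**
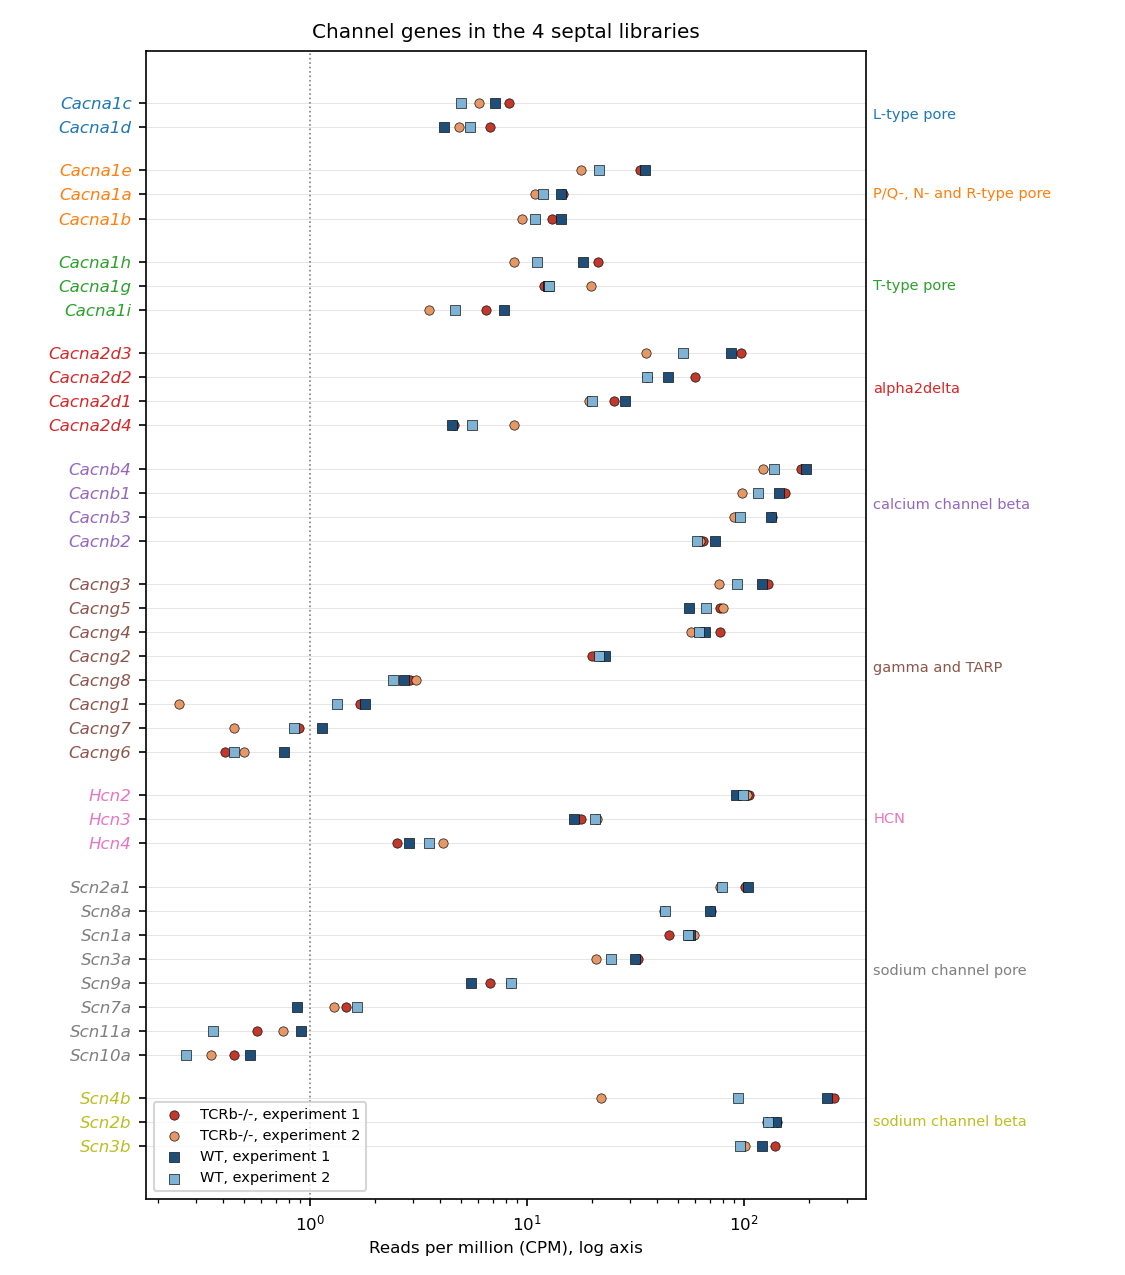
CPM (log axis) of 38 of the 41 channel genes in each of the 4 libraries, grouped by family, with circles for TCRb-/-, squares for WT, dark fill for experiment 1 and light fill for experiment 2. The dotted line marks 1 CPM. Scn4b has the widest spread among genes over 10 CPM, from 22.0 to 259.5 CPM, while the 4 libraries of Hcn2 nearly coincide.

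By genotype, limma called 0 of the 37 channel genes at an adjusted p of 0.05, against 0 of 13912 genes (0%). With the experiment as a replicate block it again called 0 channel genes, against 2 of all genes (0.0144%), and with voom weights 0. At an unadjusted p under 0.05 there was 1 channel gene, Cacng5, against 0.309% of all genes. With the block there were 2, Cacng5 and Scn4b, against 5.64%. The median log2 difference between TCRb-/- and WT was -0.04 over the channel genes and 0.00069 over all genes tested. Differences here and below are on the log2(CPM + 1) scale, which understates those of low genes. Standard errors of genotype differences are from the fit without the block unless stated, so they also hold the spread between experiments.

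Both TCRb-/- libraries lay above both WT libraries for 3 channel genes (8.11%), Cacng5, Cacng8 and Hcn2, against 9.76% of all genes. Both lay below for 1 (2.70%), Cacng2, against 8.04%. The genotype difference had the same sign in both experiments for 18 of 37 channel genes (48.6%), against 51.6% of all genes. These shares were near or below those of all genes. For 27 of the 37 the genotype difference was under 0.2 in size. The adjusted p-values do not show that the genotypes were alike, since standard errors reached 1.15 for Scn4b, or 0.39 with the block.

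**Figure D2:**
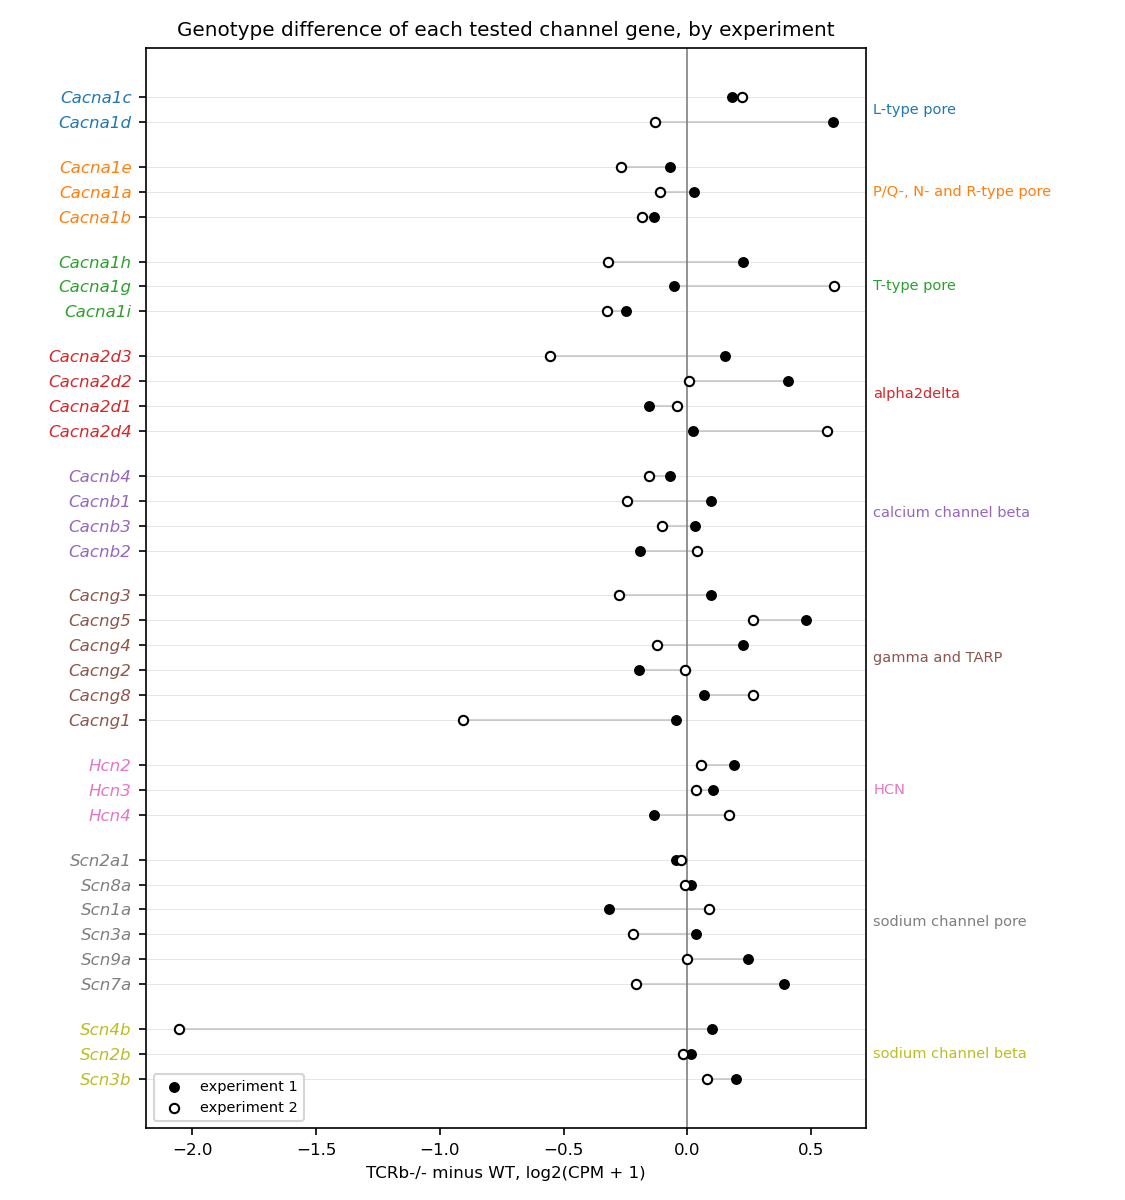
Genotype difference (TCRb-/- minus WT, log2(CPM + 1)) of 34 of the 37 tested channel genes, filled points for experiment 1 and open points for experiment 2, 1 library per genotype in each. Scn4b lies at 0.10 in experiment 1 and at -2.05 in experiment 2, and Cacng5 lies above 0 in both.

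Between experiments the channel genes differed more. In limma, 15 of 37 (40.5%) were lower in experiment 2, against 14.7% of all genes, and 0 were higher, against 8.95%. Both libraries of experiment 2 lay below both of experiment 1 for 24 channel genes (64.9%), against 37.2% of all genes, and above for 5 (13.5%), against 30.1%. The median log2 difference was -0.32 over the channel genes and -0.03 over all genes. The share of all called genes that were higher was 37.8%, and 50.6% with quantile normalization, where 14 of the 15 channel genes were still called, Cacna2d1 was not, and Hcn3 was called higher. Without a mean-variance trend 4 of the 15 were called. Without the TCRb-/- library of experiment 1, 8 of the 15 passed, and Cacna1i, Cacna2d1, Cacna2d2, Cacnb1, Scn3a, Scn3b and Scn4b did not. Without the WT library of experiment 1, 11 of the 15 passed, and Cacna1i, Cacna2d1, Scn3a and Scn4b did not. Without the TCRb-/- library of experiment 2, 12 passed, and Cacna1i, Cacna2d1 and Scn3a did not. Leaving out the WT library of experiment 2 left 1 library in that group, and differences of both directions were then largest for some genes. They were 0.64 for Cacna1g and 0.80 for Cacna2d4, and -0.49 for Cacna1b and -1.14 for Cacng1.

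Channel transcripts are long, and gene length moved with the difference between experiments. The tested channel genes had a median exon length of 6.12 kb, against 3.37 kb over all genes with a length, and 22 of 37 were in the longest of 4 length bands holding nearly equal numbers of genes. In that band, which starts at 5.04 kb, 28.6% of all genes and 9 of 22 channel genes (40.9%) were called lower in experiment 2. In the next band the shares were 20.1% of all genes and 4 of 9 channel genes (44.4%). When each library's trend on exon length was removed, the median over the channel genes was -0.16, with 9 called lower and 2, Scn1a and Scn9a, called higher. Over all genes the median was then 0.0026, with 982 of 13828 lower (7.10%) and 878 higher (6.35%). With the replicate block added to the length correction, Cacna2d4 was called higher as well (0.71, adjusted p = 0.0377).

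**Figure D3:**
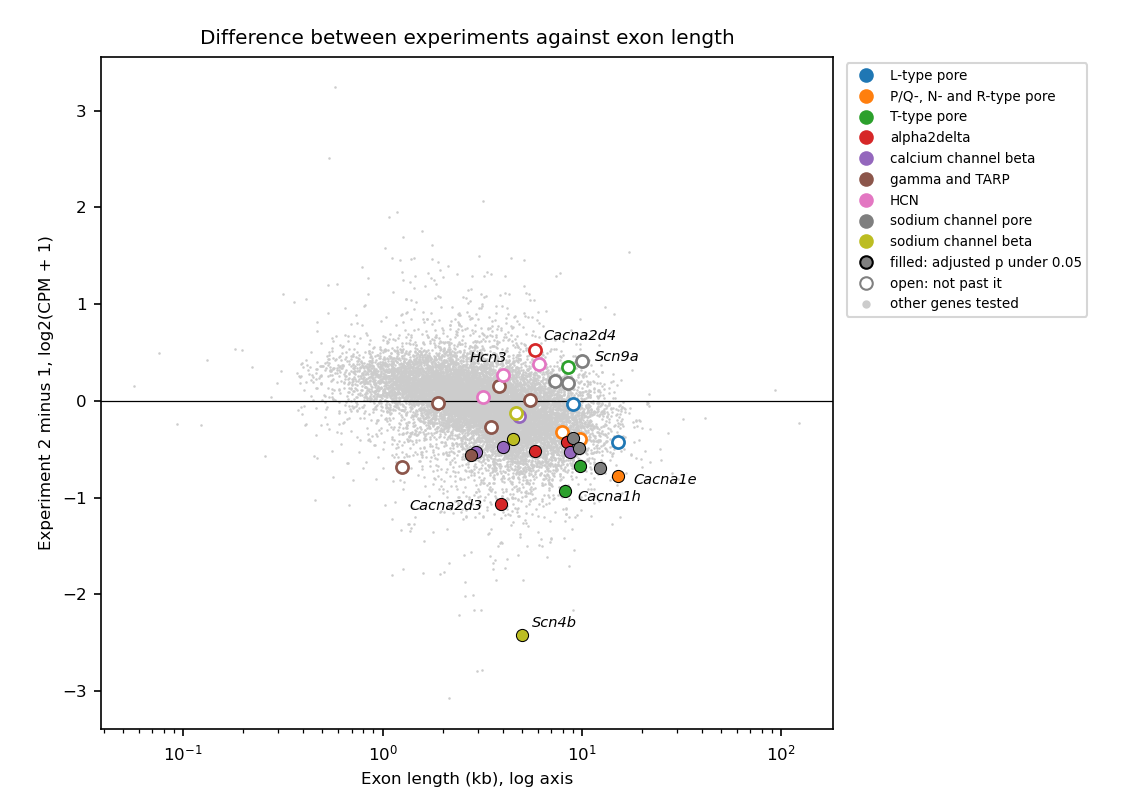
Difference between experiments (experiment 2 minus 1, log2(CPM + 1)) against exon length (kb, log axis) for 34 tested channel genes, coloured by family, and for all tested genes with a length in grey. Filled points passed an adjusted p of 0.05 in limma. All 15 filled points lie below 0, the lowest being Scn4b at -2.43.

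L-type calcium channels open for long periods and link activity to gene transcription. Their neuronal pores were near the low end of the calcium channel genes. Cacna1c had 8.26 CPM in TCRb-/- and 7.17 in WT in experiment 1, and 6.004 and 5.01 in experiment 2. TCRb-/- was thus higher in both experiments. The log2 difference of 0.20 (SE 0.25) did not pass in limma. Cacna1d had 6.75 and 4.16 CPM in experiment 1 and 4.90 and 5.46 in experiment 2, so the genotypes changed order. Chdh on the opposite strand shares 6.54% of the exon length of Cacna1d and had 3.35 to 6.96 CPM. The sources used here do not give how reads of the shared part were counted.

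P/Q-type (Cacna1a) and N-type (Cacna1b) channels drive transmitter release at nerve terminals, and R-type channels (Cacna1e) act in dendrites and terminals. Cacna1e was the 1 member of this group called between experiments. It had 33.4 CPM in TCRb-/- and 35.1 in WT in experiment 1, against 17.8 and 21.6 in experiment 2. The experiments did not overlap, at a log2 difference of -0.78 (SE 0.11, adjusted p = 0.00663), and it remained called after the length trend was removed (-0.52, adjusted p = 0.0241). Cacna1a had 14.6 and 14.4 CPM in experiment 1 and 10.9 and 11.9 in experiment 2. Cacna1b had 13.1 and 14.4 CPM, then 9.51 and 10.9. Both were lower in experiment 2 in each genotype without passing (adjusted p 0.0848 and 0.0644). Per kb of exon the 3 genes had similar levels, with means over the 4 libraries of 1.77 ± 0.565 CPM per kb for Cacna1e, 1.63 ± 0.233 for Cacna1a and 1.22 ± 0.224 for Cacna1b (SD, n = 4).

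T-type channels open near the resting potential and support burst firing, and Cacna1h and Cacna1i were called lower in experiment 2. Cacna1h had 21.4 CPM in TCRb-/- and 18.2 in WT in experiment 1, and 8.76 and 11.2 in experiment 2. Its log2 difference between experiments was -0.93 (SE 0.15, adjusted p = 0.00809), and -0.71 with the length trend removed (adjusted p = 0.0251). Cacna1i had 6.47 and 7.86 CPM, then 3.55 and 4.70, a difference of -0.68 (SE 0.18, adjusted p = 0.0317) that did not pass without the length trend (adjusted p = 0.125). Cacna1g, the main T-type gene of thalamic relay neurons, had 12.0 and 12.5 CPM in experiment 1 and 19.7 and 12.7 in experiment 2. The TCRb-/- library of experiment 2 alone stood above the rest, and neither its genotype difference (0.27, SE 0.26, unadjusted p = 0.336) nor its experiment difference (0.35, SE 0.19, adjusted p = 0.213) passed. Without the WT library of experiment 2 the latter was 0.64 and passed (adjusted p = 0.00785). Cacna1g accounted for between 30.3% and 61.9% of the summed T-type level per exon kb, Cacna1h for between 28.4% and 55.6%.

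Alpha2delta subunits bring calcium channels to the terminal membrane, and Cacna2d1 and Cacna2d2 bind gabapentin. Of the 4 genes, 3 were lower in experiment 2. Cacna2d3 had 97.0 CPM in TCRb-/- and 87.1 in WT in experiment 1, and 35.6 and 52.7 in experiment 2. The mean of experiment 1 was 2.09 times that of experiment 2, with a log2 difference of -1.07 (SE 0.16, adjusted p = 0.00688) that remained called at -0.96 with the length trend removed (adjusted p = 0.0150). Cacna2d2 had 59.9 and 44.9 CPM, then 35.9 and 35.7, a difference of -0.52 (SE 0.13, adjusted p = 0.0257). Cacna2d1 had 25.3 and 28.3 CPM, then 19.4 and 19.9, a difference of -0.43 (SE 0.10, adjusted p = 0.0243). Neither of the last 2 passed with the length trend removed (adjusted p 0.136 and 0.208). Cacna2d4 went the other way, with 4.64 and 4.54 CPM in experiment 1 and 8.76 and 5.59 in experiment 2, without passing (0.52, SE 0.20, adjusted p = 0.0989). It passed without the WT library of experiment 2 (0.80, adjusted p = 0.00747), and with the block and the length trend removed together (0.71, adjusted p = 0.0377). Cacna2d3 gave the largest share of the family per exon kb in each library, between 47.5% and 65.1%.

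The cytoplasmic beta subunits carry pores to the membrane and shape their gating. They were among the most abundant channel genes, and 3 of 4 were lower in experiment 2 by nearly the same amount. Cacnb4 had 184 CPM in TCRb-/- and 193 in WT in experiment 1, and 123 and 137 in experiment 2 (-0.53, SE 0.07, adjusted p = 0.00598). Cacnb3 had 136 and 133 CPM, then 89.9 and 96.5 (-0.52, SE 0.07, adjusted p = 0.00546). Cacnb1 had 156 and 145 CPM, then 98.6 and 117 (-0.48, SE 0.09, adjusted p = 0.0118). All 3 were still called with the length trend removed, at -0.31, -0.51 and -0.37. Cacnb2 differed less, with 64.8 and 74.1 CPM in experiment 1 and 62.8 and 61.1 in experiment 2 (-0.16, SE 0.08, adjusted p = 0.206). A430018G15Rik on the opposite strand shares 13.4% of the exon length of Cacnb4 but had at most 1.48 CPM. Within the family the order per exon kb was Cacnb3 (36.2% to 38.5% of the sum), Cacnb1 (29.8% to 32.4%), Cacnb4 (17.3% to 18.7%) and Cacnb2 (11.3% to 15.9%). These ranges did not overlap, so the order of the 4 genes held in every library while their summed level ranged from 82.0 to 119 CPM per kb. The share of Cacnb2 was 11.3% and 12.97% in TCRb-/- and WT of experiment 1, and 15.9% and 14.1% in experiment 2.

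The gamma genes encode TARPs, which carry AMPA-type glutamate receptors to synapses and slow their gating, as well as gamma subunits of muscle calcium channels. Cacng5, a TARP, had the highest genotype difference of all 37 channel genes. It had 78.1 CPM in TCRb-/- and 55.7 in WT in experiment 1, and 80.6 and 66.9 in experiment 2. The genotypes did not overlap, with means of 79.3 ± 1.80 and 61.3 ± 7.87 CPM (SD, n = 2 each). The log2 difference was 0.37 (SE 0.14), with an unadjusted limma p of 0.0461, or 0.00231 with the block, and adjusted p-values of 1.00 and 0.714, so it did not pass. Its unadjusted limma p was above 0.05 with median-of-ratios scaling (0.0559), quantile normalization (0.0542), no trend (0.0683) and the length trend removed (0.0587). Over all alternatives with 4 libraries the difference lay between 0.35 and 0.38. Leaving out 1 library at a time gave 0.24 (without the WT library of experiment 1) to 0.50 (without that of experiment 2). Cacng5 lies on chromosome 11 from 107874605 to 107915055 (GRCm38), beside Cacng4 (107732357 to 107794557) and Cacng1 (107703218 to 107716522).

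The neighbours did not share its pattern. Cacng4, also a TARP, had 77.8 CPM in TCRb-/- and 66.4 in WT in experiment 1, and 57.0 and 62.1 in experiment 2, so the genotypes changed order. Its difference between experiments did not pass in limma (-0.27, SE 0.095, adjusted p = 0.0764). Cacng1, a subunit of the muscle calcium channel, had 42 and 47 reads in experiment 1 (1.71 and 1.79 CPM), then 5 and 30 reads (0.250 and 1.34 CPM). Between experiments Cacng1 did not pass either (-0.68, SE 0.30, adjusted p = 0.127). Cacng3, the most abundant TARP gene per exon kb at 38.9% to 51.3% of the family, was the 1 gamma gene called between experiments. It had 129.8 and 121 CPM, then 76.8 and 93.1 (-0.56, SE 0.10, adjusted p = 0.00907), and was still called with the length trend removed (-0.57, adjusted p = 0.0159). Cacng2, or stargazin, had 19.97 and 23.0 CPM, then 21.5 and 21.6, the steadiest of the TARP genes. Cacng8 had 2.89 and 2.71 CPM, then 3.10 and 2.42. Its neighbours Cacng7 and Cacng6 on chromosome 7 had 0.450 to 1.14 CPM and 0.407 to 0.763 CPM, in each case from 30 reads or fewer per library.

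HCN channels pass the hyperpolarisation-activated pacemaker current. Hcn2, Hcn3 and Hcn4 were called in neither comparison. Hcn2 had 105 CPM in TCRb-/- and 92.4 in WT in experiment 1, and 104 and 99.8 in experiment 2, so TCRb-/- was higher in both by a log2 mean of 0.12 (SE 0.12, unadjusted p = 0.356). Hcn3 had 17.8 and 16.5 CPM, then 21.1 and 20.6, and Hcn4, the pacemaker form of heart and thalamus, 2.52 and 2.86, then 4.10 and 3.53. Both Hcn3 and Hcn4 were higher in experiment 2 in each genotype without passing (adjusted p 0.0999 and 0.136). Pklr on the opposite strand shares 17.8% of the exon length of Hcn3 and was not among the gene rows. How reads of the shared part were counted is not given. Per exon kb, Hcn2 had 31.4 ± 1.82 CPM, Hcn3 4.74 ± 0.555 and Hcn4 0.532 ± 0.115 (SD, n = 4). The order Hcn2, Hcn3, Hcn4 held in every library, and the ranges of the 3 genes did not overlap.

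**Figure D4:**
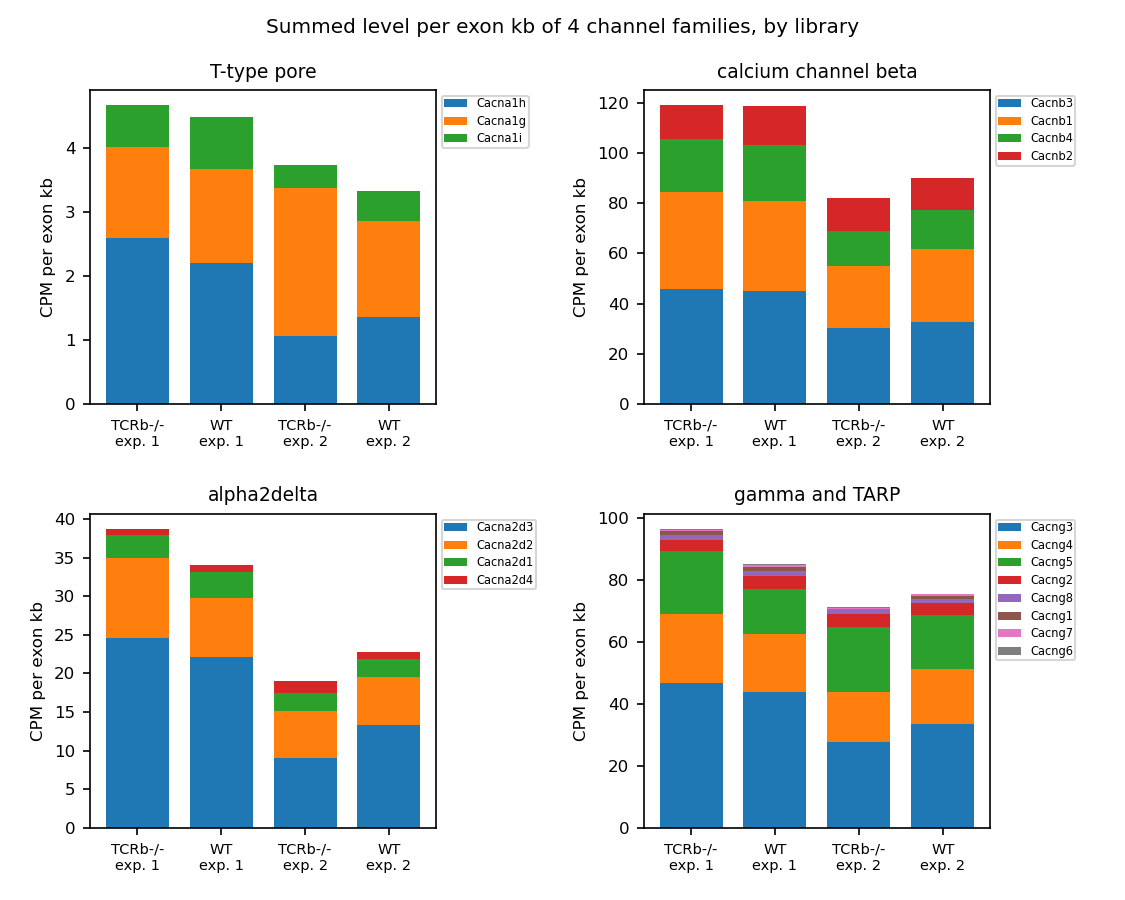
Summed CPM per exon kb of 4 calcium channel and TARP gene families in each library, stacked by gene, with experiment 1 on the left and experiment 2 on the right of each panel. The calcium channel beta bars keep the same order of genes while their height ranges from 82.0 to 119 CPM per kb, and the alpha2delta bars stand at 38.7 and 33.98 in experiment 1 and 19.0 and 22.8 in experiment 2.

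Sodium channel pores start and carry action potentials. Scn1a, Scn2a1, Scn3a and Scn8a are the brain forms, of which Scn8a sits at nodes and axon initial segments, Scn1a is prominent in inhibitory neurons and Scn3a is mainly a fetal form. Scn8a had the smallest adjusted p of all channel genes between experiments. It had 70.9 CPM in TCRb-/- and 70.01 in WT in experiment 1, and 42.9 and 43.2 in experiment 2. The genotypes thus nearly coincided within each experiment (log2 difference 0.0031, SE 0.33, or 0.079 with the block). The experiments differed by -0.70 (SE 0.07, adjusted p = 0.00386), or by -0.45 with the length trend removed (adjusted p = 0.0148). Scn2a1 had 101 and 104 CPM, then 77.7 and 79.2 (-0.38, SE 0.07, adjusted p = 0.00907). Scn3a had 32.5 and 31.7 CPM, then 20.8 and 24.4 (-0.49, SE 0.11, adjusted p = 0.0173). Neither Scn2a1 nor Scn3a passed with the length trend removed (adjusted p 0.147 and 0.138).

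Scn1a was not lower in experiment 2. It had 45.1 CPM in TCRb-/- and 56.4 in WT in experiment 1, and 59.3 and 55.6 in experiment 2, the lowest value being that of TCRb-/- in experiment 1. Its difference between experiments was 0.18 (SE 0.11, adjusted p = 0.255), and 0.41 with the length trend removed (adjusted p = 0.0417). On chromosome 2, Scn3a and Scn2a1 lie between 65457118 and 65767447 (GRCm38). Scn1a, Scn9a and Scn7a lie apart from them, between 66270778 and 66784914. Scn2a1 and Scn3a were called lower in experiment 2 while the other 3 were not. The difference among these genes was not tested. Scn9a, best known from pain-sensing neurons, had 6.79 and 5.57 CPM, then 8.505 and 8.498, also called higher with the length trend removed (0.64, adjusted p = 0.0349). Gm13629 on the opposite strand shares 1.80% of the exon length of Scn9a and had 4.27 to 9.21 CPM. Scn7a, the sodium-sensing channel of glia and circumventricular organs, had 1.46 and 0.878 CPM, then 1.301 and 1.655. Scn10a and Scn11a, both known from sensory neurons, had at most 0.534 and 0.916 CPM. Per exon kb, Scn2a1 had 9.98 ± 1.55 CPM, Scn1a 6.35 ± 0.727, Scn8a 4.60 ± 1.28 and Scn3a 2.82 ± 0.585 (SD, n = 4). The ranges of Scn1a and Scn8a overlapped, as Scn8a was the higher of them in TCRb-/- of experiment 1 alone.

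Sodium channel beta subunits are small membrane proteins that anchor and modulate the pores. The beta4 subunit, encoded by Scn4b, is linked to the resurgent sodium current of fast-firing neurons and is abundant in striatal projection neurons. Scn4b had the widest differences of any tested channel gene. It had 259.5 CPM in TCRb-/- (exact 95% interval 253 to 266) and 242 in WT (236 to 248) in experiment 1. In experiment 2 it had 22.0 CPM in TCRb-/- (19.96 to 24.1) and 94.4 in WT (90.4 to 98.5). The level was therefore 11.8 times lower in experiment 2 than in experiment 1 in TCRb-/- and 2.57 times lower in WT. The fitted log2 difference was -2.43 (SE 0.53, adjusted p = 0.0171), and -2.26 with the length trend removed (adjusted p = 0.0308). It did not pass without the TCRb-/- library of experiment 1 (adjusted p = 0.0716), without the WT library of experiment 1 (0.0634) or without a mean-variance trend (0.0770).

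By genotype, Scn4b in TCRb-/- was 1.07 times the WT level in experiment 1, and in experiment 2 WT was 4.30 times TCRb-/-. The fitted genotype difference of -0.98 (SE 1.15) had an unadjusted limma p of 0.432, or 0.0382 with the block, and an adjusted p of 0.848 with the block. Without the TCRb-/- library of experiment 1 it was -2.73 and passed (adjusted p = 0.000336), and without the TCRb-/- library of experiment 2 it was 0.77 and did not. Scn4b lies on chromosome 9 from 45138395 to 45154152 (GRCm38, plus strand), just downstream of Scn2b (45117782 to 45130070, plus strand), and the neighbours had different patterns. Scn2b had 142 CPM in TCRb-/- and 140.4 in WT in experiment 1, and 128 and 129.7 in experiment 2 (-0.13, SE 0.06, adjusted p = 0.159). Scn3b had 139 and 121 CPM, then 101 and 95.9 (-0.39, SE 0.08, adjusted p = 0.0158), and did not pass with the length trend removed (adjusted p = 0.0859). Per exon kb, Scn4b had 52.1 CPM in TCRb-/- and 48.6 in WT in experiment 1, above Scn2b (30.5 and 30.2) and Scn3b (30.8 and 26.8). In experiment 2 it had 4.41 and 18.9, below Scn2b (27.5 and 27.9) and Scn3b (22.4 and 21.2).

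Markers of neighbouring regions moved with some of these genes. Of the 12 striatum markers, 11 were called lower in experiment 2, with a median log2 difference of -1.43 over the list. Pde10a had 307 and 256 CPM in experiment 1 (TCRb-/- and WT) and 37.0 and 102 in experiment 2. Adora2a had 107 and 81.4, then 13.7 and 44.4, and Ppp1r1b 1574 and 1409, then 299.8 and 804. Isl1 was the exception, at 41.9 to 52.1 CPM. Scn4b, Cacna2d3 and Cacna1h had the same order of libraries as the 11, with TCRb-/- of experiment 1 highest and TCRb-/- of experiment 2 lowest. They were chosen for this comparison after their values were seen, and 11 of 37 channel genes (29.7%) had that order, against 12.9% of all genes. In bulk tissue fewer cells of a type and less RNA per cell cannot be told apart, and the part of striatal tissue in the values of these genes was not tested.

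Cortex and hippocampus markers (10 of 10 listed) were also lower in experiment 2, with summed levels of 247 and 312 CPM in experiment 1 and 74.7 and 70.3 in experiment 2, and 7 of 10 called. Thalamus markers (8 of 8 listed) were higher, with a median log2 difference of 1.21, summed levels of 370 and 364 CPM, then 795 and 502, and 6 of 8 called. Shox2 had 4.51 and 7.21 CPM, then 40.4 and 18.2, and Tcf7l2 43.6 and 56.5, then 182 and 108. Choroid plexus markers (10 of 10 listed) summed to 2122 and 1294 CPM, then 6833 and 4150, with 9 of 10 called higher in experiment 2. Each of these 10 was also higher in TCRb-/- than in WT in both experiments, with a median genotype difference of 0.61. By genotype 0 of them were called, or 1 with the block. Mural cell markers (5 of 5 listed) summed to 52.4 and 47.0 CPM, then 24.8 and 25.8, with 3 of 5 called lower. Cacna1g, Cacna2d4 and Hcn4 were likewise highest in TCRb-/- of experiment 2. None of Cacna1g, Cacna2d4 and Hcn4 passed between experiments in limma with all 4 libraries and no correction for length. Without the WT library of experiment 2 the differences of Cacna1g and Cacna2d4 were 0.64 and 0.80. Cacna2d4 passed with the block and the length trend removed together. General neuron markers (8 of 8 listed) summed to 5938, 6535, 6262 and 6270 CPM in TCRb-/- and WT of experiment 1 and TCRb-/- and WT of experiment 2, with a median difference of -0.02, 2 called higher and 3 lower. The part of each region in the channel values was not tested.

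**Figure D5:**
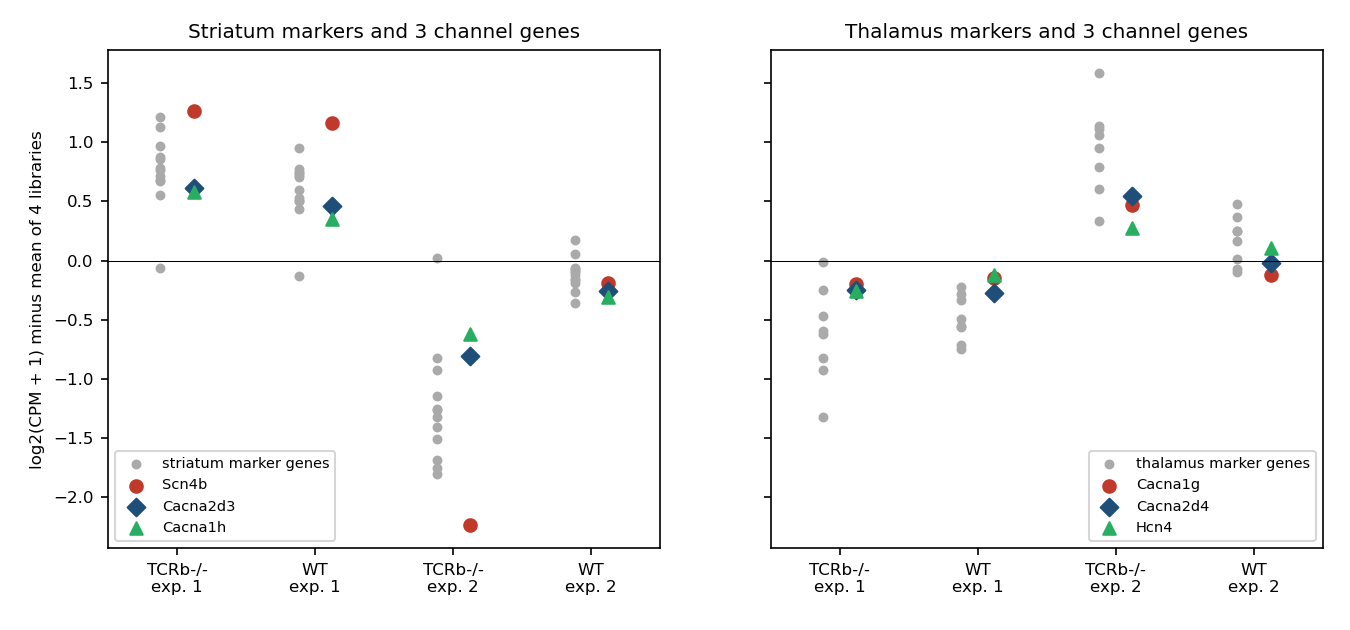
Level of each gene in each library as log2(CPM + 1) minus its mean over the 4 libraries, for 12 striatum markers (grey) with Scn4b, Cacna2d3 and Cacna1h on the left, and 8 thalamus markers (grey) with Cacna1g, Cacna2d4 and Hcn4 on the right. On the left all but Isl1 are lowest in the TCRb-/- library of experiment 2, and on the right all are highest there. The channel genes shown were not fixed in advance.

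A list of 37 symbols of proteins that bind or regulate these channels was examined beside them, of which 36 were listed and tested. By genotype limma called 0 of 36, with 1 (2.78%) at an unadjusted p under 0.05, against 0.309% of all genes, or 6 (16.7%) with the block, against 5.64%. The 1 gene was Cachd1, an alpha2delta-like protein, with 23.5 CPM in TCRb-/- and 16.7 in WT in experiment 1 and 22.1 and 16.6 in experiment 2 (0.43, unadjusted p = 0.0309). Ank3, the ankyrin that anchors sodium channels at the axon initial segment, had 41.7 and 48.6 CPM, then 29.0 and 38.6, lower in TCRb-/- in both experiments (-0.31, unadjusted p = 0.227, or 0.0104 with the block). It was called lower in experiment 2 only with the block (adjusted p = 0.0162, against 0.0649). Fgf14, which binds the sodium channel tail, had 59.2 and 56.4 CPM, then 41.9 and 52.2, and Pex5l, which controls HCN trafficking, 91.6 and 77.6, then 77.9 and 86.0. Neither was called.

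Between experiments 13 of the 36 partner genes (36.1%) were lower in experiment 2, against 14.7% of all genes, and 3 (8.33%) were higher, against 8.95%. Their median difference was -0.22, against -0.03 over all genes. Axonal scaffold genes Ank2 (-0.56), Nrcam (-0.56) and Sptbn4 (-0.67) were among the lower ones. So were the release-site protein gene Rimbp2 (-0.89), the ubiquitin ligase gene Nedd4l (-0.67), the calcium-binding protein gene Cabp1 (-0.71), Camk2a (-0.68), Flna (-0.72), Rem2 (-0.78), Fgf11 (-0.62), Unc79 (-0.67) and the AMPA receptor auxiliary genes Shisa9 (-0.43) and Cnih3 (-0.23). Rrad (0.69), Fam155a (0.35) and Fgf12 (0.24) were higher. With the block Ank3 and Calm3 were called lower as well (-0.42 and -0.23), and Cnih3 and Fgf12 were not called. With the length trend removed 8 partner genes (22.2%) were lower, against 7.10% of all genes, and 4 (11.1%) were higher, against 6.35%. The 3 calmodulin genes, whose protein senses calcium on the channel tails, had between 639 and 4003 CPM in every library.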

How the data were processed

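RNA from septal tissue was sequenced in 4 libraries, 2 per genotype. Per the submitters' processing notes the tools were HISAT2 2.1.0, SAMtools 1.3, HTSeq 0.9.1, R 4.0.5 and limma 3.46.0 on the mm10 build, with no strand setting or annotation given for the counting. The deposited values are log2 CPM, computed as (reads + 0.5) over (total + 1), as the values in the table show. Whole reads were recovered from all of them within 0.001 reads and turned into CPM, leaving out 17 spike-in rows. No count model was used, since the deposited unit is log2.

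The test, run for genotypes and separately for experiments, was limma (version 3.58.1, R 4.3.3; trended empirical Bayes, two-sided) on log2(CPM + 1). It took the 13912 genes averaging 1 CPM or more. Benjamini-Hochberg adjustment ran over all of them with a threshold of 0.05, and the script was tested on simulated data. Exon lengths are unions of exons of GENCODE basic gene models on GRCm38, and 41 of 41 channel genes matched. Replicate numbers are experiment numbers per the labels, so they pair the samples: same-numbered libraries' deviations correlated at 0.719 over genes, and the first principal component held 76.7% of the variance. Exact binomial intervals (95%) cover counting error only. Libraries are pools, so p-values measure the spread between these libraries alone. By rule every channel gene was to be named, with Cachd1, Ank3, Fgf14, Pex5l and each partner gene called with or without the block. Values of 3 channel genes are not reported here, though counts and medians over the channel genes include them. The members and gene lists were chosen with earlier results of these data known. Alternatives covered the pseudocount, the filter, the scaling, the trend, voom weights, the block, exon length and each library left out.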

Additional observations from a re-analysis of the deposited data

Results flagged for a closer look

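For 6 channel genes the genotype difference (TCRb-/- minus WT, log2(CPM + 1)) had opposite signs in the 2 experiments, each beyond the exact 95% counting interval. They are 16.2% of the 37 channel genes, against 6.74% of all genes tested, and the rule is met more easily by genes with more reads. The interval holds counting error only and not the spread between pools. Opposite signs of any size were found in 19 of the 37. The difference between experiments in the genotype effect was not tested, since each experiment holds 1 library per genotype. Below, the change is the difference in experiment 2 minus that in experiment 1. Cacna1h went from 0.22 to -0.32, a change of -0.55. Cacna2d3 went from 0.15 to -0.55, a change of -0.71. Cacnb1 went from 0.10 to -0.24, a change of -0.34. Cacng3 went from 0.10 to -0.27, a change of -0.37. Cacng4 went from 0.23 to -0.12, a change of -0.35. Scn4b went from 0.10 to -2.05, a change of -2.15. In all 6 the TCRb-/- library was the higher one in experiment 1 and the lower one in experiment 2. Genes with this direction made up 16.2% of the channel genes, against 3.43% of all genes tested. Striatum markers moved the same way, with a median genotype difference of 0.17 in experiment 1 and -1.19 in experiment 2, and their part in these values was not tested.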

How the results depend on the processing

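With all 4 libraries, other settings left 360 genotype values of the single channel genes named on the same side of the threshold with the same sign and reversed 5, and for the experiments left 326 the same, weakened 24, strengthened 6 and reversed 9. Genes called by genotype numbered 0, and 2 with the replicate block, with or without the length trend removed, and 0 to 47 with 1 library left out (channel genes 0 to 1, the 1 being Scn4b without the TCRb-/- library of experiment 1). Alone, the replicate block changed no call of a channel gene in either comparison. Added to the removal of the length trend it added the call of Cacna2d4 between experiments (0.71, adjusted p = 0.0377). Genes called between experiments numbered 3292, and 629 without a trend, 1860 with the length trend removed, 1954 with both the replicate block and the length trend removed, and 1406 to 3390 with 1 library left out. Channel genes called numbered 15, and 4 without a trend and 8 to 20 with 1 library left out.

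Genotype differences of Hcn4 (-0.00069, quantile normalization), Scn8a (-0.0017, median-of-ratios scaling) and Scn2b (0.00057 with quantile normalization, 0.0036 with the length trend removed, block or not) changed sign. So did experiment differences with the length trend removed, block or not, of Cacna1d (0.19), Cacnb2 (0.0012) and Scn2b (0.022), of Cacna1d with quantile normalization (0.032), and of Cacng8 with median-of-ratios scaling (0.0026) and quantile normalization (0.027). The causes were not tested. Leaving out 1 library at a time changed the sign of genotype differences of Cacna1a -0.24 to 0.16, Cacna1b -0.37 to 0.052, Cacna1c -0.021 to 0.42, Cacna1e -0.61 to 0.27, Cacna1g -0.064 to 0.60, Cacna1h -0.65 to 0.55, Cacna1i -0.64 to 0.072, Cacna2d1 -0.34 to 0.14, Cacna2d2 -0.15 to 0.57, Cacna2d3 -0.91 to 0.51, Cacna2d4 -0.10 to 0.69, Cacnb1 -0.40 to 0.25, Cacnb2 -0.21 to 0.061, Cacnb3 -0.33 to 0.26, Cacnb4 -0.40 to 0.18, Cacng1 -1.03 to 0.083, Cacng3 -0.46 to 0.29, Cacng4 -0.17 to 0.27, Hcn3 -0.082 to 0.22, Hcn4 -0.25 to 0.29, Scn1a -0.31 to 0.081, Scn2a1 -0.23 to 0.16, Scn2b -0.076 to 0.071, Scn3a -0.40 to 0.22, Scn3b -0.088 to 0.37, Scn4b -2.73 to 0.77, Scn7a -0.16 to 0.34, Scn8a -0.35 to 0.36, Scn9a -0.14 to 0.39, and of experiment differences of Cacna1d -0.33 to 0.26, Cacng2 -0.091 to 0.10, Cacng5 -0.087 to 0.39, Cacng8 -0.15 to 0.11, Hcn2 -0.051 to 0.14. With 1 library left out a group has 1 library, assumed to vary like the other group. With 2 pools per genotype, differences as small as most of those above could not be told from 0, and for genes under 1 CPM the reads limit any comparison.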
